A study of Mus musculus with 6 samples.

Results

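PARP-1 null fibroblasts were set directly against Wrn helicase mutant fibroblasts, gene by gene. The comparison used 4 of the 6 arrays of the study, the 2 arrays titled PARP-1 null and the 2 titled Wrn helicase mutant, and the value of a gene was the mean log2 ratio of the first pair minus that of the second. The remaining 2 arrays, of the Wrn-PARP1 double mutant, entered the estimate of the spread and are given beside the single mutants. Both single mutants had been hybridised against wild-type cells with the same dyes, so the dye bias of a probe cancels in their difference.

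All cells were fibroblasts grown from mouse embryos at day 15.5, of 129/Sv-Black Swiss strain background, the wild type included. PARP-1 null cells have no poly(ADP-ribose) polymerase 1, Wrn mutant cells have an in-frame deletion that removes helicase sequence of Wrn, and the double mutant combines both changes. Cytoplasmic RNA was taken at passage 2, after 10 population doublings, from cultures that were dividing asynchronously. Each RNA sample pooled 3 embryos of 1 litter, and a second litter gave a second pool. Wild-type cRNA was labelled with Cy5 and mutant cRNA with Cy3 on every 60-mer Agilent array, and the wild type had no array of its own. For the duplicate double-mutant array the title and source name that genotype, while its strain label reads wild type. The sources used here do not say which litter's pool was on which array, so the p-values measure the spread between arrays, which may be partly technical.

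PARP-1 binds breaks in DNA and attaches chains of ADP-ribose to itself and to chromatin proteins around the break, which recruits the repair factors of the single-strand break pathway. WRN is a RecQ helicase that also has an exonuclease, unwinds unusual DNA structures at stalled replication forks and telomeres, and is lost in human Werner syndrome, a disease of early ageing. Both proteins bind each other and act in the upkeep of the genome. Fibroblast cultures made from whole embryos also hold cells of other lineages, such as tissue macrophages, endothelium, glia and mesothelium, the lining of the body cavities.

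The value of every gene was a log2 ratio in which positive means more RNA in the mutant than in wild type. That direction is likely and not certain. It rests on Parp1, which read -2.61 and -2.30 on the PARP-1 null arrays, -2.97 and -2.59 on the double-mutant arrays, and -0.12 and -0.31 on the Wrn mutant arrays. The arrays of both genotypes without the enzyme were thus far below those of the genotype that has it. The difference between PARP-1 null and Wrn mutant was -2.24 with a standard error (SE) of 0.20, and it missed the threshold of 0.05 in limma (Benjamini-Hochberg adjusted p = 0.144). Wrn itself read 0.045 and -0.29 in the PARP-1 null and 0.84 and 0.58 in the Wrn mutant, which gave a difference of -0.83 (SE 0.24, adjusted p = 0.496 in limma with Benjamini-Hochberg). Both Wrn mutant arrays were the higher ones, but whether the probe lies inside the deleted stretch is not given, so this value checks nothing.

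Ratios carry no absolute level, so the presence of fibroblast markers could not be tested, only their balance between the genotypes. Col1a1, Col3a1 and Pdgfra, which encode fibrillar collagens and a receptor for platelet-derived growth factor, differed by 0.05, 0.05 and -0.02, less than the gap between duplicate arrays of either genotype. Vim, the intermediate filament of mesenchymal cells, differed by 0.54 and Thy1, a fibroblast surface marker, by 0.94, and neither passed limma. Over the 29 measured genes of fibroblast identity and matrix the median difference was 0.07, against 0.027 over all genes. Of these differences 18 lay above 0 and 11 below, where 8705 and 6753 of all 16504 named genes did. The one member at least 2-fold apart without overlap was S100a4 (3.45% higher, against 2.35% of all genes), a calcium-binding protein of motile fibroblasts and leukocytes. It read 1.06 and 1.91 in the PARP-1 null and -0.94 and -0.47 in the Wrn mutant (difference 2.19, SE 0.41).

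Of 16504 named genes, 1 passed limma at an adjusted p of 0.05, which is 0.00606% of those tested. At an unadjusted p under 0.05 there were 1452 genes, 708 higher and 744 lower in the PARP-1 null. The adjusted limit decides how many are counted, since 33 genes lay under an adjusted p of 0.10. The count also moved with single arrays: 342 genes passed without the first Wrn mutant array and 317 without the first PARP-1 null array, and 0 without any one of the 4 others. In a fit with 1 array of a single mutant left, that array is assumed to vary like the other genotypes, and the fit has 2 residual degrees of freedom. Differences are therefore described below by a second measure without a test, a mean difference of at least 2-fold with both PARP-1 null arrays above, or both below, both Wrn mutant arrays. By that measure 388 genes (2.35%) were higher and 431 (2.61%) were lower in the PARP-1 null. The balance turned without the first PARP-1 null array, to 1069 higher and 646 lower, while without the first Wrn mutant array it was 726 higher and 816 lower. At 4-fold the counts were 91 higher and 50 lower, and at 8-fold 20 and 11. The median gap between duplicate arrays was 0.264 for PARP-1 null and 0.265 for Wrn mutant cells, and the median difference between the genotype means was 0.232 in size. A difference of means over 2 arrays varies less than a gap between single arrays, so these medians are not a test.

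**Figure D1:**
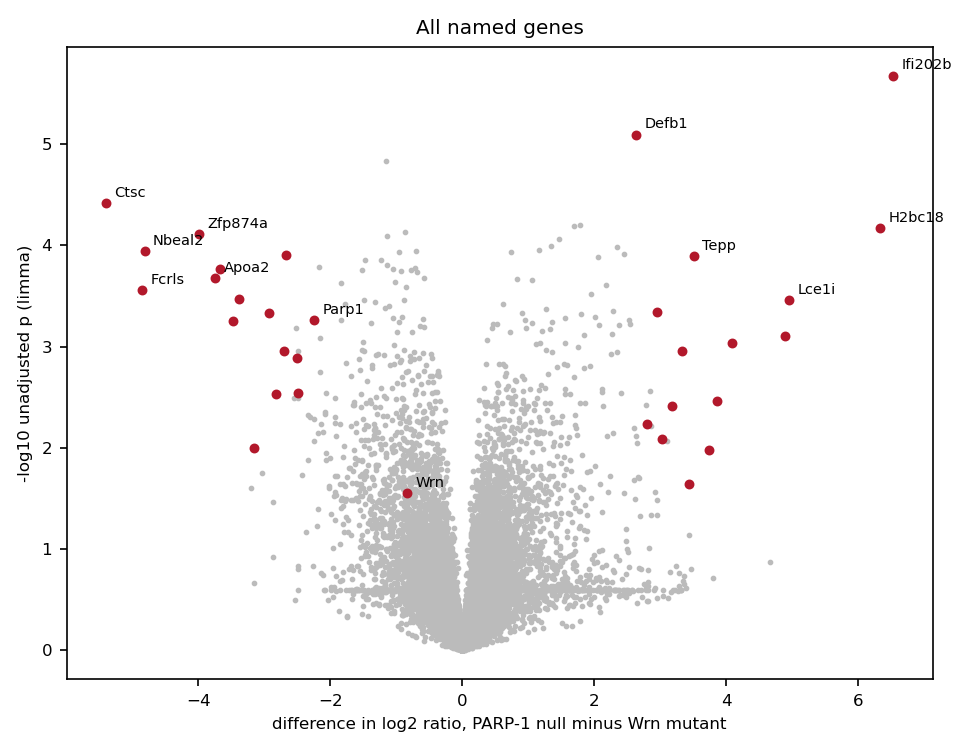
Each point is 1 of 16504 named genes, with the PARP-1 null minus Wrn mutant difference in log2 ratio on the horizontal axis and the negative log10 of the unadjusted limma p on the vertical axis. Red points are Parp1, Wrn and the 30 genes with the widest gaps, and Ifi202b, at 6.54, lies highest and farthest to the right.

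Ifi202b was the gene that passed. It belongs to the interferon-inducible HIN-200 family of DNA-binding proteins and encodes a protein known to hold back the DNA sensor AIM2. Ifi202b read 5.10 and 5.08 on the PARP-1 null arrays, -1.53 and -1.37 on the Wrn mutant arrays and 4.53 and 4.80 on the double-mutant arrays. The null lay above wild type and the Wrn mutant below it on every array, and the duplicates of each genotype lay close together. The difference was 6.54 (SE 0.12, adjusted p = 0.0436 in limma with Benjamini-Hochberg). Its size ranged from 5.94 to 6.98 over all alternatives, while its adjusted p in limma was 0.0528 without the second Wrn mutant array, 0.0602 when the second PARP-1 null array was left out, and 0.311 without either double-mutant array. It was 0.134 after scale normalization, 0.277 after quantile normalization and, at the highest, 0.360 with the array number as a block. Ifi202b has closely similar family members, so its spot may not read this gene alone. Ifi202b and Parp1 are both on chromosome 1, with 41 measured genes between them in the order of the reference table.

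The other genes with the widest gaps in favour of the PARP-1 null did not pass limma, so their values are descriptions. H2bc18, a histone H2B gene, read 6.62 and 5.91 in the PARP-1 null, against -0.0003 and -0.14 in the Wrn mutant, and 3.07 and 2.65 in the double mutant. The PARP-1 null arrays stood highest and the double mutant between the single mutants (difference 6.33, SE 0.31, adjusted p = 0.0990 in limma). Lce1i and Lce1e encode similar proteins of the cornified envelope of the epidermis, and their spots may share signal. Lce1i read 3.44 and 4.47 in the PARP-1 null, against -1.01 and -0.99 in the Wrn mutant and 1.82 and 1.77 in the double mutant. Lce1e differed by 4.89 (SE 0.47), close to the 4.96 (SE 0.38) of Lce1i. For both genes the PARP-1 null was above and the Wrn mutant below wild type.

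Atp10d, a phospholipid-transporting P-type ATPase, read 3.92 and 3.48 in the PARP-1 null against -0.02 and -0.78 in the Wrn mutant. Ptprv, a receptor-type tyrosine phosphatase that p53 induces in mouse cells, read 4.48 and 4.02 against 0.08 and 0.70, and the double mutant read 5.13 and 3.79. Both Wrn mutant arrays were within 2-fold of wild type for these genes and every array without PARP-1 was high. Cd200, a surface glycoprotein that signals to myeloid cells, read 3.50 and 3.66 in the PARP-1 null and 0.38 and -0.72 in the Wrn mutant. Gbp2b, an interferon-inducible guanylate-binding protein, read 3.80 and 3.39 against 0.54 and -0.01. Defb1, a beta-defensin of epithelia, read 2.58 and 2.69 in the PARP-1 null and exactly 0 on both Wrn mutant arrays. It is not known if an exact 0 was measured or stands for a missing value, which also touches Mybpc1, the slow-muscle myosin-binding protein C, with 0 on both Wrn mutant and both double-mutant arrays against 2.62 and 3.29 in the PARP-1 null. The rest of the 15 widest gaps were Tepp, a gene named for testis, prostate and placenta, Ppie, a spliceosomal cyclophilin, Otud7a, a deubiquitinase, Alx1, a homeobox gene of the face with an exact 0 on the first Wrn mutant array, and 4930503E14Rik. Their differences ranged from 2.81 to 3.52.

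Among genes lower in the PARP-1 null, Ctsc had the widest gap. It encodes cathepsin C, the lysosomal peptidase that activates the serine proteases of leukocyte granules. Ctsc read -4.19 and -4.55 in the PARP-1 null, against 0.98 and 1.08 in the Wrn mutant and -4.08 and -3.60 in the double mutant (difference -5.40, SE 0.23, adjusted p = 0.0990 in limma). The Wrn mutant was above and both genotypes without PARP-1 were below wild type on every array. Fcrls, an Fc receptor-like scavenger receptor of macrophages and microglia, read -3.44 and -3.76 against 1.69 and 0.81 (difference -4.85, SE 0.35, adjusted p = 0.114 in limma). Nbeal2, a BEACH-domain protein needed for platelet granules, read -5.08 and -5.78 against -0.56 and -0.69, so both single mutants were below wild type and the PARP-1 null far more so. Zfp874a, a zinc finger gene, showed the same order with -4.34 and -4.52 against -0.58 and -0.31.

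Apoa2, an apolipoprotein of high-density lipoprotein, read -3.36 and -2.89 in the PARP-1 null and 0.47 and 0.76 in the Wrn mutant. Klra7 and Klra16 belong to the Ly49 receptors of natural killer cells, a family of similar genes whose spots may share signal. Klra7 differed by -3.67 (SE 0.23) and Klra16 by -2.83 (SE 0.40), and the double mutant was low for both. Ms4a7, a membrane protein of macrophages, read -1.69 and -1.63 against 1.21 and 0.47. Arsk, a lysosomal sulfatase, differed by -3.37 and Ptprg, a receptor-type tyrosine phosphatase, by -2.92. That value of Ptprg averages 2 spots that disagreed, at -5.48 and -0.36. Large2, a glycosyltransferase of dystroglycan, had Wrn mutant arrays as far apart as -0.62 and 1.12, with the PARP-1 null at -2.87 and -2.95. The others of the 15 were Samt2b, 4930546C10Rik, Serinc2 of the serine incorporator family and Samd4, an RNA-binding repressor of translation, with differences between -3.47 and -2.48. None of these genes passed limma.

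The double mutant did not enter the differences and gaps of these genes, but it entered the spread in limma, by which Ifi202b was named. It was closer to the PARP-1 null than to the Wrn mutant for 13 of the 15 genes on the high side and 12 of the 15 on the low side. The exceptions were H2bc18, Mybpc1, Samt2b, 4930546C10Rik and Serinc2. Mybpc1 read 0 on both double-mutant arrays, as in the Wrn mutant, and 4930546C10Rik read -0.01 and 0.03 there against -2.48 and -2.16 in the PARP-1 null. No test was made of the place of the double mutant. The share of all named genes for which the double mutant lay closer to the PARP-1 null was not computed. These counts therefore do not set the named genes apart from the rest. All 3 genotypes shared wild type as partner on the array.

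**Figure D2:**
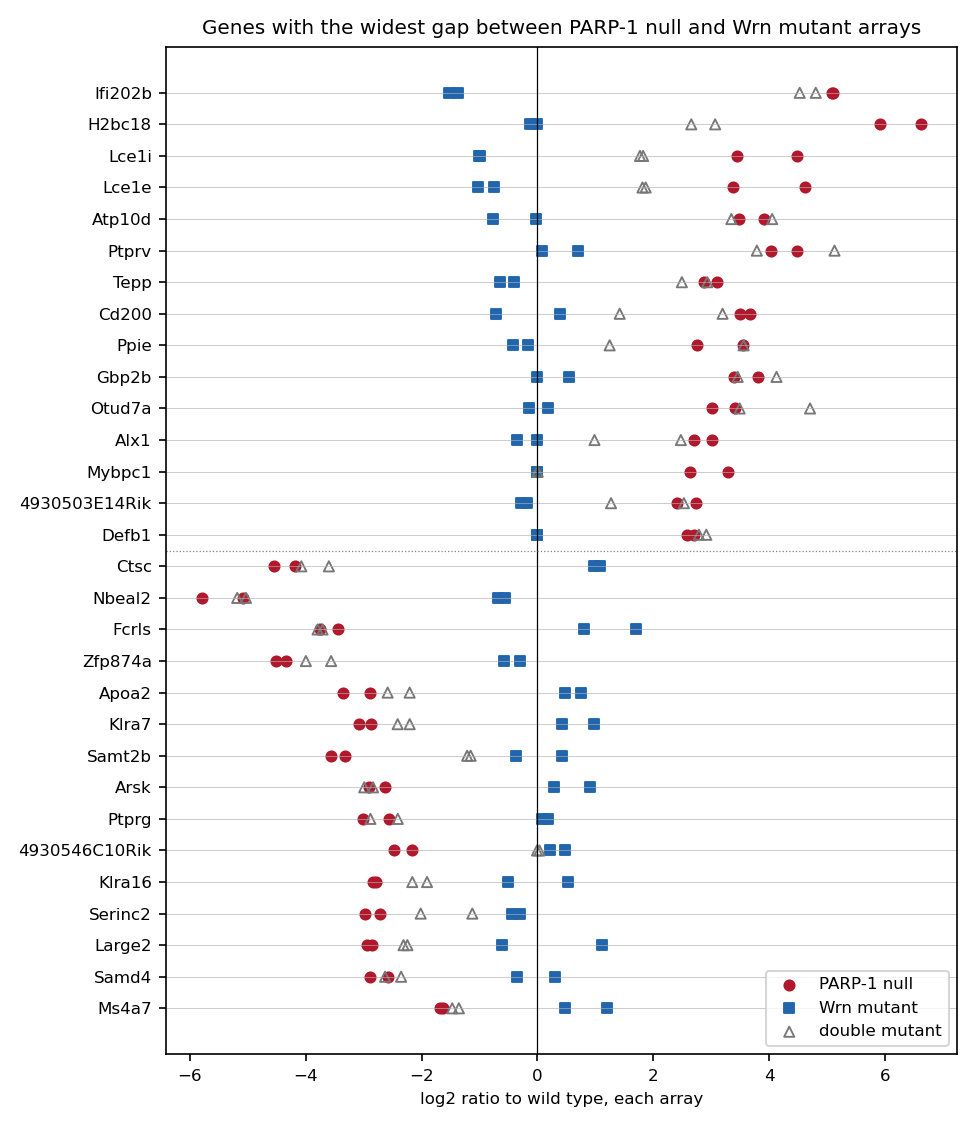
Log2 ratio to wild type on each array (horizontal axis) for the 15 genes with the widest gap on each side, with 2 PARP-1 null, 2 Wrn mutant and 2 double-mutant arrays as separate points. Red and blue points never overlap within a gene, and the open triangles of the double mutant lie closer to the red points for 25 of the 30 genes. The same share over all named genes was not computed.

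Genes of the pathways in which both enzymes act were nearly balanced between the single mutants. Of 21 measured genes of the PARP family and of ADP-ribose turnover, Parp1 was the one at least 2-fold lower and Parp16, an endoplasmic reticulum member, the one higher. Each was 4.76% of the list, where 2.61% of all genes were lower and 2.35% higher. With 1 member each, these counts are no result about the family. Parp16 read 1.17 and 2.77 in the PARP-1 null against 0.21 and 0.38 in the Wrn mutant. Parp2, the closest relative of Parp1 in break repair, read -0.59 and -0.60 against -0.70 and -0.66. All 4 Parp2 values lay close together (difference 0.08, SE 0.25). Of 12 RecQ helicases and partners, Top3a, the topoisomerase that works with the Bloom helicase, was the one 2-fold higher (8.33%, against 2.35% of all genes). Top3a read -0.54 and 3.50 against -0.75 and -0.82. Its difference rests on the second PARP-1 null array. Rpa1, a subunit of the single-strand binding protein RPA, lay just under the limit at 0.32 and 0.20 against -0.75 and -0.73. Blm, the Bloom syndrome helicase, differed by 0.12 and Recql by 0.09.

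None of the 18 genes of base excision and single-strand break repair and none of the 22 of double-strand break repair was 2-fold apart, and their medians were 0.10 and 0.07. Atm, the kinase that signals double-strand breaks, nevertheless had 4 tightly grouped arrays, -0.84 and -0.78 in the PARP-1 null and -0.09 and -0.12 in the Wrn mutant. Its difference of -0.71 (SE 0.04) did not pass limma (adjusted p = 0.0990 by Benjamini-Hochberg). Lig1, the DNA ligase of replication and long-patch repair, read 0.16 and 0.33 against -0.48 and -0.35.

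Targets of p53 were mixed, with a median of 0.11 over 26 genes. Ptprv was 2-fold higher (3.85%, against 2.35% of all genes). The proapoptotic BH3 gene Pmaip1 and the receptor gene Eda2r were lower (7.69%, against 2.61%). Pmaip1 read -1.25 and -1.31 in the PARP-1 null and -0.12 and -0.23 in the Wrn mutant. Both arrays without PARP-1 lay more than 1 below those of the Wrn mutant (difference -1.11, SE 0.09, adjusted p = 0.135 in limma). Cdkn1a, the p21 inhibitor of the cell cycle, read 0.35 and 0.36 against 0.22 and 0.27, and Mdm2, the ubiquitin ligase of p53, differed by 0.04. None of these repair and p53 genes passed limma.

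Marker genes of macrophages and other leukocytes were lower in the PARP-1 null than in the Wrn mutant. Of 26 measured members 11 were at least 2-fold lower without overlap (42.3%, against 2.61% of all genes), 1 was higher, and the median difference was -0.93. None passed limma, and 24 of the 26 differences were below 0, where 6753 of all 16504 named genes were. Cells in bulk RNA were not separated, so fewer macrophages and less RNA per cell cannot be told apart.

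The pan-leukocyte phosphatase gene Ptprc read -0.45 and -0.94 in the PARP-1 null and 1.15 and 0.25 in the Wrn mutant. Adgre1, the F4/80 antigen of macrophages, read -0.59 and -0.20 against 1.60 and 0.75. C1qa, a chain of complement component C1q made by tissue macrophages, read -0.20 and -0.11 against 1.03 and 0.30. In each case the first Wrn mutant array was the highest and the duplicate stood between it and the PARP-1 null. Cd48, a leukocyte surface protein, read -1.48 and -1.25 against 1.67 and 0.70, and Ctss, the antigen-processing protease cathepsin S, read -1.33 and -1.01 against 1.45 and 0.05. S100a8, a calprotectin subunit of neutrophils and monocytes, went the other way, with 1.36 and 2.00 in the PARP-1 null and -0.76 and -1.58 in the Wrn mutant. It was higher still in the double mutant, at 4.89 and 4.64.

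Array by array, the leukocyte markers had medians of 1.11 and 0.15 in the Wrn mutant and of -0.41 and -0.23 in the PARP-1 null. The count of members lower by the 2-fold measure was 5 without the first Wrn mutant array and 18 without the second, with 4.94% and 3.46% of all genes lower in those settings. It was 7 without the first PARP-1 null array and 16 without the second. Both Wrn mutant medians lay above both PARP-1 null medians, while the number of genes past the limit moved with every one of the 4 arrays. Neither Cd68 nor Csf1r had a spot that was named here.

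Interferon-response genes were lower in the PARP-1 null as well. Of 42 measured members 12 were at least 2-fold lower without overlap (28.6%, against 2.61% of all genes). Only 1, Gbp2b, was higher (2.38%, against 2.35%). The median was -0.65, and 34 differences lay below 0, where 6753 of all 16504 named genes did. None passed limma. Trim30a, a TRIM protein that dampens innate signalling, read -0.76 and -1.82 in the PARP-1 null and 1.09 and 2.40 in the Wrn mutant (difference -3.04, SE 0.74, adjusted p = 0.445 in limma). Irgm1, an immunity-related GTPase, read -0.22 and -0.35 against 0.70 and 1.21. Rsad2, the antiviral enzyme viperin, read -1.79 and -2.01 against -0.26 and -0.86, so here both genotypes were below wild type. Isg15, the ubiquitin-like modifier, read -0.71 and 0.06 against 0.20 and 1.27, and the arrays were separated only narrowly. Oasl2, Oas2, Usp18, Ifit3, Irgm2, Igtp, Ddx58 and Tgtp1 made up the remainder, with differences from -1.73 to -1.04.

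The shift was largest on the second Wrn mutant array. Array medians of the interferon genes were 0.19 and 1.14 in the Wrn mutant, against 0.00 and -0.10 in the PARP-1 null and -0.48 and -0.71 in the double mutant. Without the second Wrn mutant array 3 members were 2-fold lower, where 3.46% of all genes were. Without the first 22 members were, where 4.94% of all genes were. The high array for interferon genes was thus not the one that was high for leukocyte markers. The part of either in the other was not tested.

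Many interferon-induced genes carry an interferon-stimulated response element, the GAAANNGAAA motif that binds IRF and STAT-IRF complexes, close to the start of transcription. The motif was looked for on both strands of the 250 bases before each start in RefSeq promoters of the assembly GRCm38.p6. It was found for 17 of the 34 interferon genes that had a promoter, for 446 of 13223 measured genes (3.37%) and for 978 of 32851 promoters (2.98%). Among the members 2-fold lower, 8 of 10 with a promoter held it, and among the other members 9 of 24 did. A match describes letters only and is not a shown binding site. The stretches of 5 lower members and of Gbp2b, the one that was higher, are given with the motif or its reverse complement TTTCNNTTTC in capitals, overlapping matches merged, 5′ to 3′ on the strand of the gene.
Trim30a (chr7:104465194-104465264, minus strand): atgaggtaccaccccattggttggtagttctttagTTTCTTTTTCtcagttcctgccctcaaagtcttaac
Rsad2 (chr12:26456528-26456607, minus strand): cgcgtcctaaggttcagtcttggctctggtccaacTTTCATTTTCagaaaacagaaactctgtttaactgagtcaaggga
Ifit3 (chr19:34583372-34583451, plus strand): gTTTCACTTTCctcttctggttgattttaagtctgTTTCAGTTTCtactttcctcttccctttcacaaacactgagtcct
Irgm1 (chr11:48871421-48871479, minus strand): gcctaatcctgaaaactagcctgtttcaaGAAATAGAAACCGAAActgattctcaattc
Isg15 (chr4:156200840-156200919, minus strand): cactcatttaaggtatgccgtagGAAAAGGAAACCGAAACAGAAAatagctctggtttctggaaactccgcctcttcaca
Gbp2b (chr3:142594675-142594754, plus strand): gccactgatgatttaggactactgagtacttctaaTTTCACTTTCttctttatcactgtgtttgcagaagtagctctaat

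Gbp2b thus held the same motif as members that were lower, and its own ratio was high on all 4 arrays without PARP-1, with 4.13 and 3.46 in the double mutant. Ifi202b held no match in its window, which says only that these letters are not there. In the HIN-200 family, of which 5 genes were measured, Ifi205 read -1.54 and -1.67 in the PARP-1 null against 0.15 and 1.00 in the Wrn mutant. Ifi209 read -2.10 and -2.78 against -1.53 and -0.77. Both were 2-fold lower (40%, against 2.61% of all genes) where Ifi202b was higher (20%, against 2.35%), and neither passed limma. With 5 of 15 listed genes measured, these counts are no result about the family. The other measured relatives, Ifi204 and the DNA sensor gene Aim2, differed by 0.07 and -0.22.

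Chemokines and cytokines lay on both sides. Of 36 measured genes 7 were at least 2-fold higher (19.4%, against 2.35% of all genes) and 5 lower (13.9%, against 2.61%) in the PARP-1 null, and the median was 0.40. Ccl3 and Ccl4 are chemokines that macrophages release, and both were lower. Ccl3 read -0.59 and -0.62 in the PARP-1 null and 1.93 and 0.69 in the Wrn mutant, and Ccl4 read -0.47 and -0.35 against 1.92 and 1.11. Ccl5, Cxcl12 and Il1rn were the other lower members. Il6, the acute-phase cytokine that fibroblasts also release, read 2.88 and 2.65 in the PARP-1 null and 0.81 and 1.22 in the Wrn mutant. All 4 Il6 ratios were above wild type and the PARP-1 null was the higher genotype (difference 1.75, SE 0.18, adjusted p = 0.180 in limma). Ppbp, a neutrophil-attracting CXC chemokine, read 1.36 and 1.59 against -0.64 and -1.69, and 4.72 and 3.94 in the double mutant. Cxcl1, of the same function, differed by 1.79, and Ccl8 by 1.79, with Cxcl14, Cxcl5 and Il1a also higher. None of the 36 passed limma, and the count of higher members was 13 without the first PARP-1 null array, where 6.48% of all genes were higher. Without the second PARP-1 null array 6 were higher and 7 lower.

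**Figure D3:**
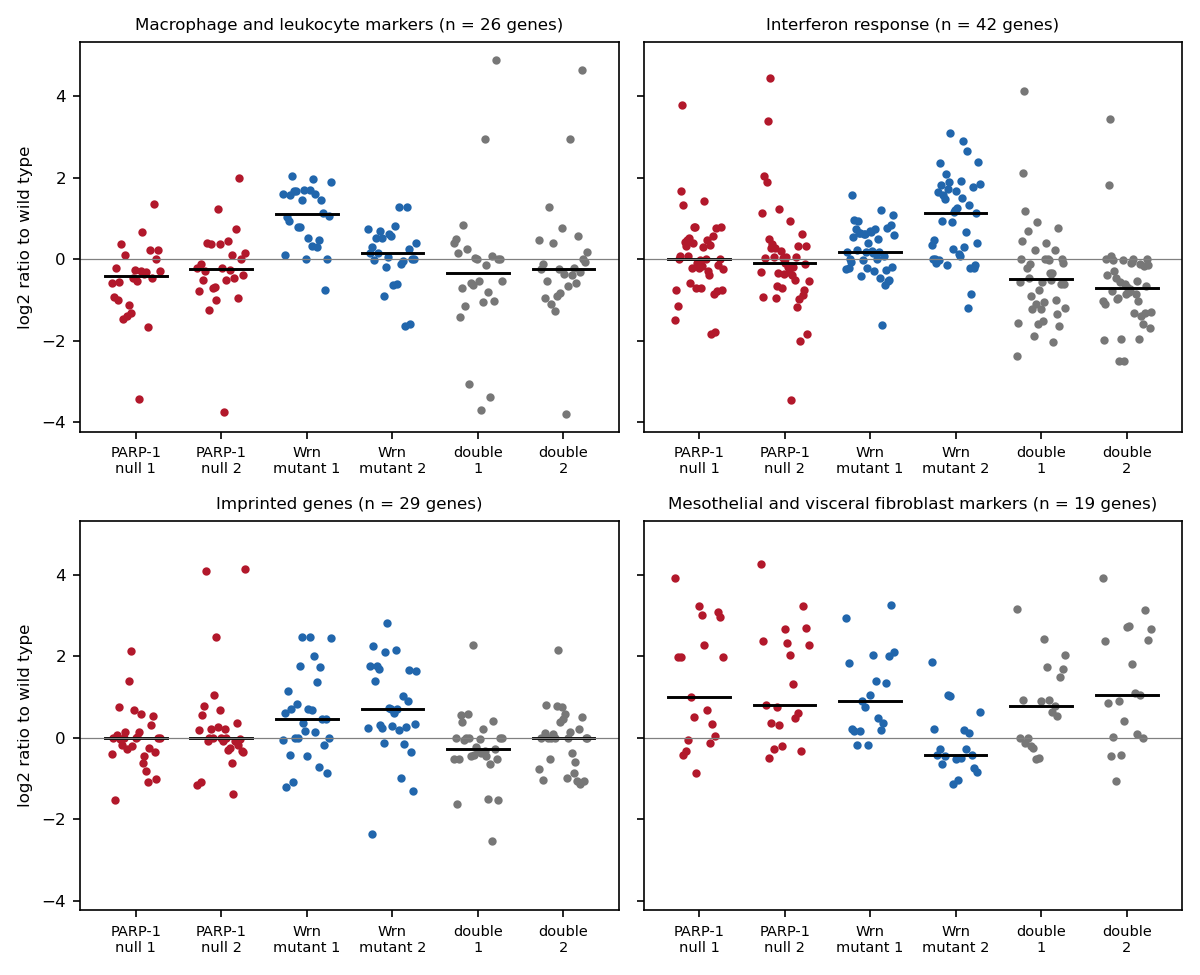
Log2 ratio to wild type of each measured member (points) and the list median (bar) on each array, for leukocyte markers, interferon-response genes, imprinted genes and mesothelial markers. The first Wrn mutant array is high for leukocyte markers (median 1.11), the second for interferon genes (1.14), both for imprinted genes (0.45 and 0.70), and the second is low for mesothelial markers (-0.42).

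Imprinted genes, which are expressed from the copy of 1 parent and many of which set embryonic growth, were lower in the PARP-1 null for 21 of 29 measured members. Over all 16504 named genes 6753 differences were below 0. By the 2-fold measure 6 were lower (20.7%, against 2.61% of all genes) and 0 higher, the median was -0.36, and none passed limma. Mest, a paternally expressed hydrolase-like gene of mesenchyme, read 0.14 and 0.21 in the PARP-1 null and 2.48 and 2.17 in the Wrn mutant. Peg3, a paternally expressed zinc finger gene, read -0.82 and -0.61 against 1.36 and 1.04. For both genes the duplicates of each genotype were close together and the genotypes well apart (Mest difference -2.15, SE 0.26, and Peg3 -1.92, SE 0.28). Cdkn1c, a growth-restraining inhibitor of cyclin-dependent kinases, read 0.06 and 0.55 against 1.15 and 2.25. Nnat, Plagl1 and Asb4 were the other lower members, and for Nnat and Plagl1 1 Wrn mutant array was near the PARP-1 null. Igf2 and H19 were high on all 4 arrays, with Igf2 at 2.13 and 2.49 in the PARP-1 null and 2.47 and 2.81 in the Wrn mutant. With 1 array left out the count of lower members was between 4 and 8, where 3.21% to 4.94% of all genes were lower. Igfbp3, a carrier of insulin-like growth factors, read -0.48 and -0.71 against 0.92 and 0.69.

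Mesothelial and visceral fibroblast markers were higher in the PARP-1 null for 7 of 19 members by the 2-fold measure (36.8%, against 2.35% of all genes) and lower for 0, with a median of 0.67. Over the list 14 differences lay above 0 and 5 below, where 8705 and 6753 of all 16504 named genes did. After quantile normalization 2 members were 2-fold higher, and the share of all genes in that setting is not given here. Lrrn4, a leucine-rich membrane protein of mesothelium, read 3.25 and 2.68 in the PARP-1 null and 1.06 and -0.52 in the Wrn mutant. Msln, the surface protein mesothelin, read 3.02 and 2.34 against 2.04 and -1.03. Wt1, the transcription factor of mesothelium and kidney, read 1.99 and 2.27 against 2.10 and 0.62. For Wt1 and for Upk3b, an uroplakin of mesothelium at 2.97 and 2.70 against 3.26 and -0.85, the first Wrn mutant array was as high as the PARP-1 null. The second Wrn mutant array was the lowest of the 4 for all of these genes. Array medians were 1.00 and 0.81 in the PARP-1 null against 0.91 and -0.42 in the Wrn mutant. Without the second Wrn mutant array the median was 0.12, with 4 members 2-fold higher and 1 lower. Of all genes 3.01% were higher and 3.46% lower in that setting. Gpm6a and Bnc2 were lower without overlap on the 4 arrays, by less than 2-fold. Gpm6a read 0.50 and 0.31 against 0.77 and 1.02, and Bnc2 read -0.43 and -0.49 against 0.16 and -0.27.

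Genes of the retinoic acid pathway, several of them also mesothelial, were 2-fold higher for 4 of 18 members (22.2%, against 2.35% of all genes) and lower for 0. Rbp4, the retinol carrier, read 2.02 and 2.07 in the PARP-1 null and 0.78 and -0.34 in the Wrn mutant. Aldh1a1, a retinal dehydrogenase, read 3.92 and 4.28 against 2.95 and 1.87. Crabp1, which binds retinoic acid in the cytoplasm, read 0.95 and 0.99 against -0.33 and 0.10. The PARP-1 null duplicates lay close together for each of these genes, and none passed limma. Rxrb, a retinoid X receptor, went the other way with a difference of -0.89 (SE 0.30).

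Other cell types gave smaller sets, and an exact 0 on a Wrn mutant array enters the values of Mbp, Dct and Flt1. Over all genes 2.35% were 2-fold higher and 2.61% were lower. Among 14 neural crest and glial markers 3 were 2-fold higher (21.4%) and 0 were lower. Sox10, the transcription factor of neural crest and its glia, read 2.29 and 2.18 in the PARP-1 null and 0.42 and -0.22 in the Wrn mutant. Mbp and Dct were the other higher members. Dct was high on the second PARP-1 null array, 3.53, and 0.34 on the first. Among 22 epithelial and epidermal markers Lce1i, Lce1e, Krt7 and Dsp were 2-fold higher (18.2%) and 0 were lower. Sfn and Epcam were lower without overlap, by less than 2-fold. Sfn read -0.95 and -1.25 against 0.05 and -0.46, and Epcam read -1.41 and -1.43 against -0.73 and -1.24. The keratin Krt14 read -0.16 and -0.12 against 0.10 and -0.40. Of 19 endothelial markers Emcn, Flt1 and Kdr were 2-fold lower (15.8%) and 0 were higher. Kdr, the main VEGF receptor, read -0.40 and -1.13 against 0.57 and 0.52. Cdh5 and Flt4 were higher without overlap, by less than 2-fold. Cdh5 read 0.51 and 0.56 against 0.16 and -0.61, and Flt4 read -0.40 and 0.13 against -0.75 and -0.72. Over the list 10 differences lay above 0 and 6 below, with a median of 0.07. Pecam1, an endothelial adhesion molecule, read 0.03 and 0.00 against -0.11 and 0.00, so the endothelial markers did not all move together. No skeletal muscle marker of 23 was 2-fold apart without overlap.

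Among matrix proteases and their inhibitors 3 of 25 were higher (12%, against 2.35% of all genes) and 2 lower (8%, against 2.61%). Mmp8, the neutrophil and fibroblast collagenase, read 2.49 and 3.35 in the PARP-1 null against 0.75 and -0.11 in the Wrn mutant, and Timp1, an inhibitor of matrix metalloproteinases, -0.62 and 0.62 against -1.96 and -1.44. Mmp9, a gelatinase of leukocytes, was lower, at -1.24 and -0.35 against 1.10 and 0.43. Of 35 Hox genes, which pattern the body axis, 27 differences were below 0 with a median of -0.29, where 6753 of all 16504 named genes were below 0. Hoxd1 alone was 2-fold lower (2.86%, near the 2.61% of all genes), at 0.07 and -0.67 against 1.39 and 1.66. The Hox median was -0.49 without the first Wrn mutant array and -0.10 without the second.

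**Figure D4:**
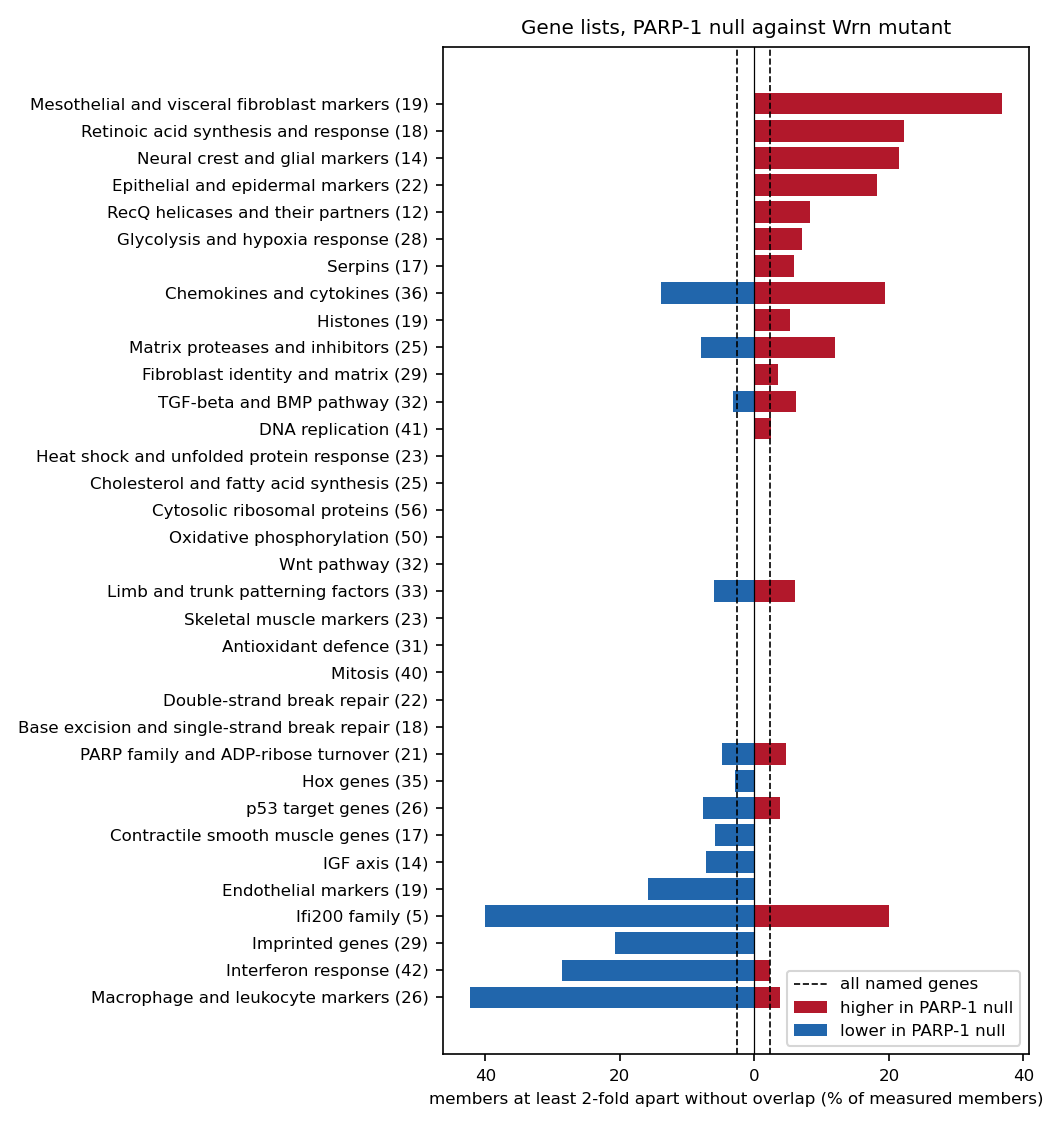
Share of the measured members of each gene list (list size in brackets) that were at least 2-fold higher (red, to the right) or lower (blue, to the left) in the PARP-1 null without overlap of arrays, in percent. Dashed lines mark all named genes, 2.35% higher and 2.61% lower, and leukocyte markers (42.3% lower), interferon genes (28.6% lower), imprinted genes (20.7% lower) and mesothelial markers (36.8% higher) stand farther out than most lists.

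Large housekeeping sets moved little in size but mostly one way. All 50 measured genes of oxidative phosphorylation had differences above 0, where 8705 of all 16504 named genes did, with a median of 0.36, and 55 of 56 cytosolic ribosomal protein genes did, with a median of 0.39. No member of either was 2-fold apart or passed limma. Ndufa5, a subunit of respiratory complex I, read 0.17 and 0.53 in the PARP-1 null and -0.31 and -0.21 in the Wrn mutant. Rps24, of the small ribosomal subunit, read 1.41 and 1.47 against 0.87 and 1.01. The genotypes were apart for both genes by less than a factor of 2.

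Both PARP-1 null array medians lay above both Wrn mutant medians for oxidative phosphorylation, and for ribosomal proteins they overlapped. For oxidative phosphorylation they were 0.23 and 0.57 in the PARP-1 null against -0.07 and 0.16 in the Wrn mutant, and for ribosomal proteins 0.23 and 0.95 against 0.01 and 0.43. Among these 4 arrays the second PARP-1 null array was the highest in both sets, and the second double-mutant array was higher still, at 0.88 and 1.23. With the second PARP-1 null array left out the median difference was 0.13 for oxidative phosphorylation and 0.050 for ribosomal proteins, and without the first PARP-1 null array it was 0.55 and 0.72. The ribosomal median was 0.23 without the first Wrn mutant array. Genes of 1 set share an array's scaling, so their signs are not independent of each other.

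Proliferation genes were also on the higher side in the PARP-1 null. Of 40 mitosis genes 37 differences were above 0 with a median of 0.26, and of 41 DNA replication genes 35 were, with a median of 0.28. Over all 16504 named genes 8705 differences were above 0. Ccnb2, a mitotic cyclin, read 0.35 and 0.49 in the PARP-1 null and -0.13 and -0.19 in the Wrn mutant (difference 0.58, SE 0.11, adjusted p = 0.338 in limma). Rrm2, a subunit of the ribonucleotide reductase that makes DNA precursors, read 0.28 and 0.70 against -0.41 and -0.18. The single mutants lay on either side of wild type for both genes. In the double mutant Ccnb2 read 1.24 and 1.01, above both single mutants. Without the first Wrn mutant array the median of the replication genes was 0.021, and without the second it was 0.60. The mitosis median was 0.13 when the second PARP-1 null array was left out and 0.17 without the first Wrn mutant array.

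**Figure D5:**
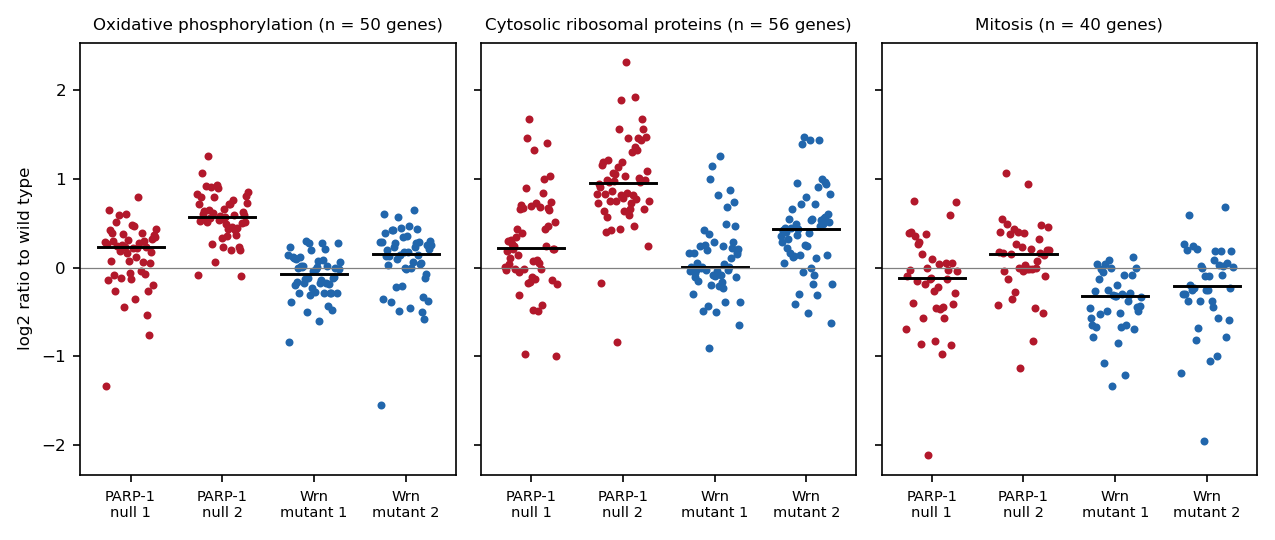
Log2 ratio to wild type of the members of 3 gene sets (points) on the 2 PARP-1 null and 2 Wrn mutant arrays, with the median as a bar. Medians of the second PARP-1 null array are the highest of these 4 arrays in each set, at 0.57 for oxidative phosphorylation, 0.95 for ribosomal proteins and 0.16 for mitosis.

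Genes beside the targeted loci were looked at apart, since both loci were changed in embryonic stem cells. Among the 25 measured genes on each side of Parp1, 1 was 2-fold higher and 1 lower, with a median of 0.01. These shares, 2% in each direction, are near the 2.35% and 2.61% of all genes, so the values that follow are no result about the neighbourhood. The higher gene was Opn3, an opsin, at 1.46 and 1.58 in the PARP-1 null against -0.0007 and 0.93 in the Wrn mutant. The lower one was Cdc42bpa, a kinase that acts downstream of Cdc42, at -1.25 and -4.83 against -0.22 and -0.12, so its PARP-1 null duplicates were far apart. Mixl1, a homeobox gene that lies 2 measured genes from Parp1, differed by -0.90 (SE 0.13). Around Wrn, Unc5d, a netrin receptor, was the only gene 2-fold apart, at -1.77 and -1.88 against -1.61 and 0, a gap that rests on an exact 0. Tti2, a partner of the PIKK kinases and 4 measured genes from Wrn, read -0.58 and -0.70 against 0.13 and 0.16. None of the neighbours passed limma.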

How the data were processed

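The deposited table holds log10 ratios, 22393 spots on each of 6 arrays, which were multiplied by 3.32 to give log2 ratios. That base is inferred, because values are capped at exactly 2 in size. Direction, centring, background correction and spot filters were not given in the sources used here. Per array 16.9% to 23.7% of the values were exactly 0. Intensities were not used here, so signal over background is unknown, and precision is limited by the number of arrays. The lowest correlation between any 2 arrays over named genes was 0.37.

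By the platform annotation 18218 spots had 1 symbol, 16 had several and 4159 had none. Averaging the spots of a gene left 16504 named genes, of which 1193 had several spots. For 152 of those the spots' differences spanned more than 1.

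All 20679 features were fitted with limma 3.58.1 (lmFit and eBayes, R 4.3.3, data.table version 1.17.8) on 6 arrays with 1 coefficient per genotype and 3 residual degrees of freedom, adjusted by Benjamini-Hochberg over all features at 0.05. The procedure was tested on simulated data. Summaries and plots were made with pandas 2.3.3 and matplotlib 3.10.9 in Python 3.11.15.

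The comparison and the 34 gene lists (888 of 984 genes measured) were chosen with earlier results of these data known. The named genes were Parp1, Wrn, and in each direction the 15 genes that passed limma without overlap or, as 1 did, filled by the widest gap between arrays, then per list the 2 widest gaps in each direction and, among the neighbours, the 3 widest. Further list members, markers and neighbours were named after their values were seen. Not every gene that the rules for lists and neighbours select is printed in the text, and those left out lie on both sides. The members printed are therefore not a sample drawn by rule alone. RefSeq genes of GRCm38.p6 gave the order of 16462 genes, matched by Entrez ID, and the promoters. Alternatives covered the arrays fitted, scaling, the prior, exact zeros, spot averaging, thresholds and each array left out.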

Additional observations from a re-analysis of the deposited data

Results flagged for a closer look

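For 11 of 135 named genes examined, all arrays of the PARP-1 null and of the Wrn mutant lay on opposite sides of wild type by at least 0.5 on the log2 scale. Over all named genes 17 had the PARP-1 null above and the Wrn mutant below wild type, and 13 had the reverse. The PARP-1 null was above and the Wrn mutant below for Ifi202b (difference 6.54), Lce1i (4.96), Lce1e (4.89), S100a8 (2.85) and Ppbp (2.64). The reverse held for Ctsc (-5.40), Fcrls (-4.85), Trim30a (-3.04), Cd48 (-2.55), Ccl3 (-1.92) and Peg3 (-1.92). Only for Ifi202b did the test of the difference pass, at an adjusted p of 0.0436 in limma, and for the 10 others it did not, with adjusted p from 0.0990 to 0.454 in limma. The side of wild type depends on any dye bias of the probe, which cancels in the difference and not in a single ratio.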

How the results depend on the processing

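None of the differences of named genes and list medians recomputed here changed sign. The balance of higher to lower counts did turn in some settings. For all genes it turned without the first PARP-1 null array and at a difference of 2, and for chemokines without the second PARP-1 null array. The number of named genes past limma, 1 in the analysis reported, was 0 with the 4 single-mutant arrays alone, 7 after scale normalization, 5 after quantile normalization, 2 with a robust prior, 17 with exact zeros as missing, 33 at an adjusted p of 0.10, and 0 to 342 with 1 array left out. Of those 17, 16 were among the 30 named genes, and 13762 named genes were tested there. Ifi202b lost its call in 8 of 14 alternatives. Among these, the 4 single-mutant arrays alone and the fits without either double-mutant array are the same fit. A double-mutant array left alone adds nothing to the estimate of the spread. The 2-fold counts were 372 to 1069 higher and 529 to 816 lower with 1 array left out (1069 higher and 646 lower without the first PARP-1 null array), and 91 and 50 at a difference of 2. Leaving out single arrays gave 5 to 18 lower leukocyte markers, 3 to 22 lower interferon genes, 4 to 8 lower imprinted genes, 4 to 9 higher mesothelial markers (2 after quantile normalization), and 6 to 13 higher and 5 to 7 lower chemokines. It gave medians of 0.13 to 0.55 for oxidative phosphorylation, 0.050 to 0.72 for ribosomal proteins, 0.021 to 0.60 for DNA replication, 0.13 to 0.37 for mitosis and -0.49 to -0.096 for Hox genes. Neighbours 2-fold apart numbered 2 to 4 for Parp1 and 1 to 2 for Wrn with 1 array left out. They were 4 for Parp1 after scale and 5 after quantile normalization, and 0 for Wrn under both. The share of all genes under either normalization is not given here. Neither these counts nor that of the mesothelial markers can therefore be set against it. Array numbers follow accession order and pair no samples. With the number as a replicate block 0 genes passed, and first minus duplicate values correlated at -0.114 between Wrn mutant and PARP-1 null, -0.168 between Wrn mutant and double mutant and 0.171 between PARP-1 null and double mutant. Among single genes and the other values, 40 gained a call, 15 of them with exact zeros as missing, and 8 lost one, all of them Ifi202b. With 2 arrays per genotype, no wild-type array and unknown signal over background, a difference that missed the threshold is not shown to be absent.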
